A study of Homo sapiens with 36 samples.

Results

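Of 61544 genes counted in a human pancreatic cancer cell line, 12 were near silent everywhere except in cells in which Cas9 had been switched on against PELO. They were chosen by their level in these same libraries, in CPM (a gene's count relative to the total count of its library, on the counts-per-million scale). A gene entered the set if its mean CPM was at least 1 in the PELO line after 96 h with doxycycline (dox) and at most 0.2 in each of 10 other groups. The PELO line with dox at 48 h was the only group that the rule left free. In all, 41794 genes met the ceiling of 0.2 CPM in those 10 groups, so the 12 are 0.0287% of the silent genes. Of the 3 genes that had been put forward as markers of the set, only ATP6V0D2 met the rule. ALOX5AP and LCE1F were switched on in the same libraries but exceeded the ceiling elsewhere, and are given beside the set and not counted in it.

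The cells were MIA PaCa-2, a line established from a pancreatic carcinoma, grown in tetracycline-free serum and carrying a Cas9 and guide system induced by dox. The guide was directed against PELO, against HBS1L or against nothing (the non-targeting control line), each line was grown with no dox or with dox at 2 µg/mL, and cells were harvested after 48 h or after 96 h. The 12 groups had 3 libraries of polyadenylated RNA apiece, 36 in all, and the aim named by the submitters was to learn what loss of either protein does in cells with a destabilised SKI complex. Whether a line is 1 clone, and whether the 3 libraries of a group came from separate cultures, is not given in the sources used here, so a p-value measures only the spread between libraries. The 48 h and the 96 h libraries carry separate runs of library numbers, so time and preparation cannot be told apart.

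Library totals were 45356024 to 66704841 counts, with a single library outside that range, PELO with dox at 96 h, replicate 2, at 107436235 counts. A level of 0.2 CPM stood for 9.07 counts in the shallowest library and 21.5 in the deepest. In the PELO line, the targeted gene PELO was at 25.6 ± 1.05 CPM with no dox and 20.3 ± 0.401 with dox at 48 h, and at 28.7 ± 1.27 and 26.2 ± 0.920 at 96 h (SD, n = 3). In the control line it was at 28.9 and 25.8 CPM at 48 h, and at 27.6 and 25.6 at 96 h. By edgeR's test, PELO RNA was lower with dox at 48 h (adjusted p = 5.01e-05) and not called at 96 h (0.488). Beyond the control line it was called at neither time (edgeR adjusted p = 0.185 and 0.916). In the HBS1L line, HBS1L was at 105 CPM with no dox and 37.3 with dox at 48 h, and at 112 and 33.5 at 96 h. The keratins of simple epithelia KRT8 and KRT18 were abundant in the PELO line with no dox at 96 h (1483 and 1561 CPM), whereas the epithelial adhesion genes EPCAM and CDH1 did not exceed 0.0238 CPM in any group mean.

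PELO and its partner HBS1L are the factors that release ribosomes which have stalled on a messenger RNA, and the SKI complex passes such messengers to the RNA exosome for decay. Several of the protein-coding genes of the set are best known from tissues other than pancreas. Involucrin (IVL) and SPRR2D are structural proteins of the cornified envelope, the crosslinked shell that keratinocytes of the epidermis build as they die. TREM1 is an immunoglobulin-like receptor of neutrophils and monocytes that amplifies inflammatory signals. ATP6V0D2 is a subunit of the proton pump in the osteoclast, the bone-resorbing cell, and in kidney. PHF24 and SCN3B are best known from brain.

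Promoter sequences of RefSeq (GRCh38.p14, 250 bases before the start of transcription and 50 after it) were found by symbol for 5 of the 12 genes, IVL, TGFA, TREM1, KLF14 and PHF24. Those of IVL, TREM1 and KLF14 are shown, each 5′ to 3′ on the gene's own strand, because they stand for an epidermal gene, a myeloid gene and a gene with a CpG-rich start. IVL lies at chr1:152908296-152908595 on the plus strand, TREM1 at chr6:41286633-41286932 on the minus strand and KLF14 at chr7:130734158-130734457 on the minus strand. Capitals mark the matches described further on, in IVL an AP-1 site and a TATA box, in TREM1 a C/EBP-ATF element and in KLF14 a set of GC boxes.
IVL: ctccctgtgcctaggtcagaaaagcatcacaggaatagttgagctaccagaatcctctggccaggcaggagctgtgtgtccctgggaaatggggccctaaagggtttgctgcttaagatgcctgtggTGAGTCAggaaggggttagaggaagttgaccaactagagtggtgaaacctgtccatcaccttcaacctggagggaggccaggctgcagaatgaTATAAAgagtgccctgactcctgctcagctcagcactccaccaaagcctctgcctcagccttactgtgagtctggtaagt
TREM1: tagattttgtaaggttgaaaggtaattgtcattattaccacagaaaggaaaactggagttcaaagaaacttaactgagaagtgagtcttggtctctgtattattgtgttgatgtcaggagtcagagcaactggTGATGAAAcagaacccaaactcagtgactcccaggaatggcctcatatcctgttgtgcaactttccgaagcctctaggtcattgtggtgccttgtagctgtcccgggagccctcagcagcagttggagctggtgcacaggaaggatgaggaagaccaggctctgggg
KLF14: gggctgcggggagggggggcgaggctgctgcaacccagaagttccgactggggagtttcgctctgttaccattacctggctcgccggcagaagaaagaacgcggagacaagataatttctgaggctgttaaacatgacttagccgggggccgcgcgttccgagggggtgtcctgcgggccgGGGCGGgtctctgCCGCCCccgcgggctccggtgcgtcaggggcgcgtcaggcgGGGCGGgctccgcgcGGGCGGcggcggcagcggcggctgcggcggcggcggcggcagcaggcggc

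At 96 h with dox the 12 genes reached means of 1.03 to 6.81 CPM. Since this level was what chose them, it is given as a description with no test. For each of the 12 genes, the 3 libraries of that group lay above all of the other 33. The ratio to the PELO line with no dox at 96 h ran from 13.7 for CLDN14-AS1 to 91.7 for the pseudogene ENSG00000215861, leaving aside TREM1 and SPRR2D, whose no-dox libraries held at most 3 counts in all. By type, 8 are protein-coding genes, 2 are antisense long noncoding RNAs and 2 are unprocessed pseudogenes. None of the 12 (0 genes) is in the table of log2 expression of 17138 genes that the authors deposited. In bulk RNA, a gene on at a low level in every cell and one on at a high level in few cells cannot be told apart.

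**Figure D1:**
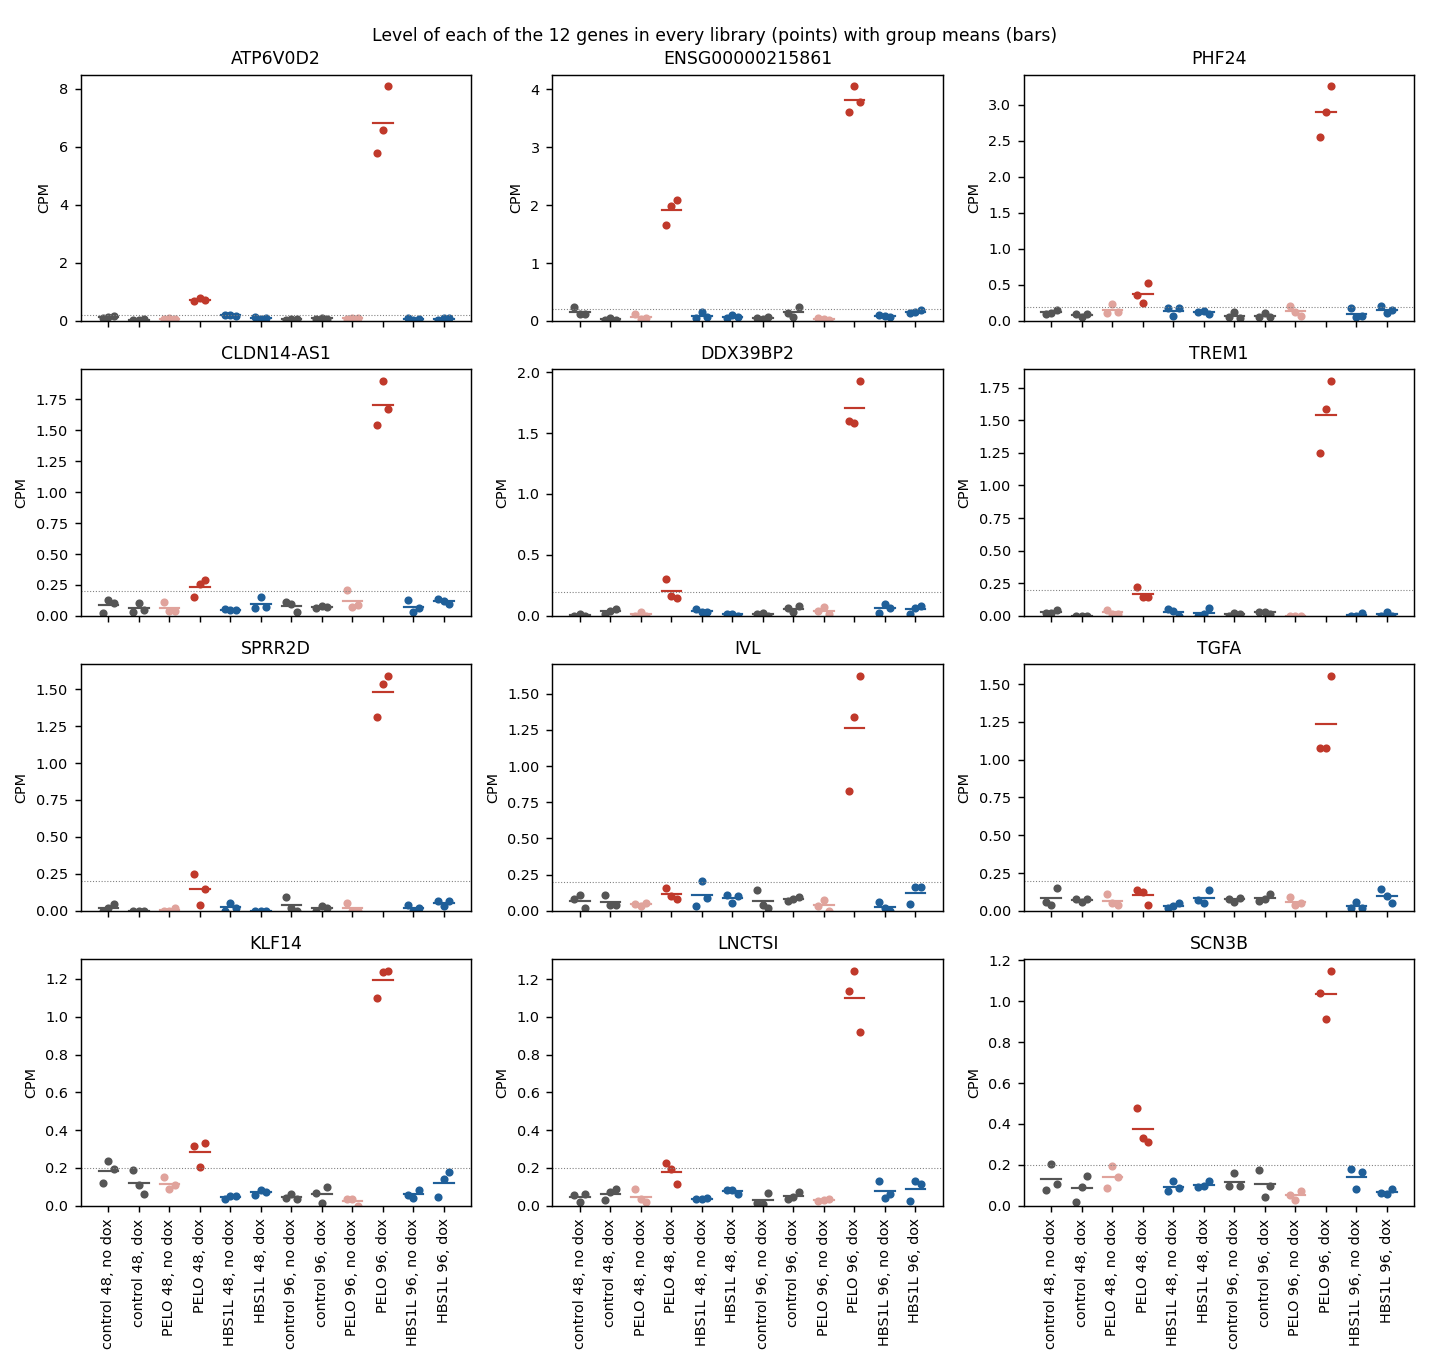
Level of each of the 12 genes in CPM (vertical axes, each panel with its own scale) in every library (points) of the 12 groups, with the group means as bars. The 3 libraries of the PELO line with dox at 96 h lie above all 33 others in each panel, and the 48 h dox libraries of ENSG00000215861, at 1.66 to 2.09 CPM, are the only others above 1 CPM.

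The epidermal genes lie in the epidermal differentiation complex of chromosome 1. IVL (ENSG00000163207, chr1:152908545-152911886, plus strand, GRCh38), the scaffold protein of the cornified envelope, was at 0.828, 1.34 and 1.62 CPM in the 3 libraries with dox at 96 h and at 0.0365, 0.0747 and 0 with no dox. IVL at 48 h was at 0.159, 0.103 and 0.0836 CPM with dox and at 0.0441, 0.0356 and 0.0537 with no dox. The 2 treatments did not overlap at either time, but the HBS1L line with dox at 96 h had a mean of 0.126 CPM, above the 0.115 ± 0.0393 (SD, n = 3) of the PELO line with dox at 48 h. IVL was the only gene of the 12 with another group's mean above that of PELO with dox at 48 h.

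SPRR2D (ENSG00000163216, chr1:153039725-153041931, minus strand), a small proline-rich protein crosslinked into the same envelope, was at 1.31, 1.53 and 1.59 CPM with dox at 96 h. The no-dox libraries of that time held 3 counts against 329 with dox, a ratio of 82.1 with an exact 95% interval of 27.9 to 400.3 that covers counting error only. At 48 h the dox libraries held 12.5, 2 and 7 counts (0.249, 0.0414 and 0.146 CPM), against 0, 0 and 1 with no dox. All 3 dox libraries were above the no-dox libraries, though the second rested on 2 counts.

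LCE1F, which codes for a late cornified envelope protein, was also on in the PELO line. It was at 4.24, 5.39 and 6.28 CPM with dox at 96 h and at 0.378, 0.372 and 0.334 at 48 h. It fell outside the set because the HBS1L line with dox at 96 h was at 0.176, 0.281 and 0.440 CPM, a mean of 0.299.

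Of the signalling genes, TGFA codes for transforming growth factor alpha, a ligand of the epidermal growth factor receptor made by many epithelia (ENSG00000163235, chr2:70447280-70554193, minus strand). It was at 1.08, 1.08 and 1.55 CPM with dox at 96 h and at 0.0913, 0.0373 and 0.0529 with no dox. At 48 h the dox libraries were at 0.139, 0.124 and 0.0418 CPM and the no-dox libraries at 0.110, 0.0534 and 0.0358. The 2 treatments of TGFA thus overlapped at 48 h.

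TREM1 (ENSG00000124731, chr6:41267926-41286719, minus strand) had no count in any of the 3 no-dox libraries of the PELO line at 96 h. With dox it was at 1.25, 1.58 and 1.80 CPM, at least 84.9-fold higher than the 3 counts over the group that a count of 0 allows. At 48 h the dox libraries held 11, 7 and 7 counts (0.219, 0.145 and 0.146 CPM) and the no-dox libraries 2, 1 and 1. The highest of the 30 libraries that had to be low was at 0.0600 CPM, below each of the 48 h dox libraries. The related receptor genes next to it stayed near 0 in the PELO line with dox at 96 h, with TREML2 at 0.00563 CPM, TREML4 at 0.00931 and NCR2 at 0.

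ALOX5AP, the protein that presents arachidonic acid to 5-lipoxygenase in leukocytes, was at 11.6, 11.4 and 11.1 CPM with dox at 96 h. It was at 2.59, 2.68 and 2.44 CPM with dox at 48 h, and at 0.0913, 0 and 0 with no dox at 96 h. It missed the set in 2 groups, the HBS1L line with dox at 96 h, at 0.432, 0.364 and 0.310 CPM, and the control line with no dox at 48 h, with a mean of 0.2002 CPM just above the ceiling.

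The pump and channel genes were ATP6V0D2 and SCN3B. ATP6V0D2 (ENSG00000147614, chr8:85987323-86154228, plus strand) was at 5.79, 6.57 and 8.08 CPM with dox at 96 h against 0.0548, 0.0933 and 0.106 with no dox, a ratio of 80.5. After 48 h it was at 0.677, 0.786 and 0.731 CPM with dox and at 0.0661, 0.107 and 0.0716 with no dox. Its dox libraries at both times were above all 30 libraries that had to be low, of which the highest was at 0.216 CPM. An antisense gene shares 16.7% of its exon bases and was at 0.00873 CPM in the PELO line with dox at 96 h.

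SCN3B, the beta-3 subunit of voltage-gated sodium channels (ENSG00000166257, chr11:123629187-123655244, minus strand), was at 1.04, 0.912 and 1.15 CPM with dox at 96 h and at 0.0548, 0.0280 and 0.0706 with no dox. After 48 h SCN3B was at 0.478, 0.331 and 0.313 CPM with dox and at 0.0882, 0.196 and 0.143 with no dox. The ratio at 96 h was 20.2, and the libraries with dox were the higher ones at both times.

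The nuclear proteins were KLF14 and PHF24. KLF14, an imprinted zinc-finger transcription factor known for its part in fat tissue (ENSG00000266265, chr7:130731235-130734176, minus strand), was at 1.10, 1.24 and 1.24 CPM with dox at 96 h and at 0.0365, 0.0373 and 0 with no dox. At 48 h it was at 0.319, 0.207 and 0.334 CPM with dox and at 0.154, 0.0889 and 0.107 with no dox, with no overlap. PHF24, a brain protein with a plant homeodomain finger (ENSG00000122733, chr9:34957608-34982544, plus strand), was at 2.56, 2.90 and 3.26 CPM with dox at 96 h and at 0.207, 0.131 and 0.0617 with no dox. At 48 h its libraries were closer, at 0.358, 0.248 and 0.522 CPM with dox and at 0.110, 0.231 and 0.125 with no dox, with no overlap.

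The 2 antisense RNAs come from 1 locus on chromosome 21, where both run against the claudin gene CLDN14. CLDN14-AS1 (ENSG00000233818, chr21:36445731-36532408, plus strand) was at 1.55, 1.90 and 1.67 CPM with dox at 96 h and at 0.210, 0.0747 and 0.0882 with no dox. At 48 h it was at 0.149, 0.259 and 0.293 CPM with dox and at 0.110, 0.0356 and 0.0358 with no dox. LNCTSI (ENSG00000230479, chr21:36430360-36481070, plus strand) was at 1.14, 1.24 and 0.920 CPM with dox at 96 h and at 0.0274, 0.0280 and 0.0353 with no dox. After 48 h LNCTSI was at 0.229, 0.197 and 0.115 CPM with dox and at 0.0882, 0.0356 and 0.0179 with no dox. Both RNAs were higher in each dox library than in each no-dox library of their time, while CLDN14 itself was at 0.00621 CPM in the PELO line with dox at 96 h. The 2 genes overlap in span on the same strand, and LNCTSI had a whole-number count in only 1 of the 6 PELO libraries with dox, so its reads were divided between features and the 2 genes may share reads.

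The pseudogenes were ENSG00000215861 and DDX39BP2. ENSG00000215861 (chr1:149197992-149321732, minus strand) was at 3.61, 4.05 and 3.79 CPM with dox at 96 h and at 0.0593, 0.0420 and 0.0235 with no dox. At 48 h it was at 1.66, 1.99 and 2.09 CPM with dox and at 0.127, 0.0325 and 0.0478 with no dox, so it had passed 1 CPM by then, alone among the 12. None of its 6 counts in the PELO dox libraries was whole (0 of 6), so its reads were divided with similar sequences and its level is uncertain. The noncoding gene ENSG00000274265, which overlaps its span on the other strand, was at 0.0518 CPM with no dox and 0.527 with dox at 96 h. As strand-specific counting is not stated, reads of the 2 strands may not be told apart.

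DDX39BP2 (ENSG00000238024, chr6:29993209-29993605, plus strand) is a pseudogene of the RNA helicase DDX39B. It was at 1.60, 1.58 and 1.93 CPM with dox at 96 h and at 0.0365, 0.0747 and 0.0176 with no dox, a ratio of 39.7. At 48 h the dox libraries held 15, 8 and 7 counts and the no-dox libraries 0, 2 and 0, a ratio of 16.1 with an exact 95% interval of 4.09 to 139.3 for counting error only.

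Per kilobase of exon, the order of the levels with dox at 96 h was not that of the CPM. DDX39BP2 led with 6.60 CPM per kilobase, followed by ENSG00000215861 with 4.09 and ATP6V0D2 with 2.26. CLDN14-AS1, SPRR2D and LNCTSI were at 1.45, 1.40 and 1.23, and SCN3B was lowest at 0.109. Of these, DDX39BP2 and SCN3B had whole counts in all 6 PELO libraries with dox. ATP6V0D2 and CLDN14-AS1 had whole counts in 4 of the 6, SPRR2D in 3, LNCTSI in 1 and ENSG00000215861 in 0. Their other counts held divided reads.

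At 48 h most of the set was already higher with dox. In the comparison of the PELO line with dox against no dox at 48 h, edgeR's quasi-likelihood test with Benjamini-Hochberg adjustment over 20767 genes called 10 of the 12 genes higher and 2 neither way, against 24.2% of all genes tested called higher and 23.7% called lower. The dox libraries at 48 h were not used to choose the genes, but the no-dox libraries had to be low, which favours a call. All 12 passed the filter on low counts in a fit that held the 96 h dox libraries that chose them. Only 5 passed it in the compared libraries alone, so these shares describe the genes and do not support the choice. The median change of the 12 was 2.07 on the log2 scale, and that of all genes tested was −0.020.

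Beyond the change that dox brought in the control line at 48 h, 8 of the 12 were called higher by the same test, against 22.9% of all genes, with a median of 2.01 on the log2 scale against −0.040 over all genes. ENSG00000215861 had the firmest call, at a log2 change of 4.78 ± 0.30 (SE, n = 3 per group, edgeR adjusted p = 1.07e-15) and of 7.31 ± 0.72 beyond the control line (adjusted p = 9.6e-11). ATP6V0D2 rose by 3.17 ± 0.32 (edgeR adjusted p = 1.92e-10), and by 4.89 ± 0.66 beyond the control line (adjusted p = 9.1e-08). In the control line at 48 h, the mean of each of the 8 was lower with dox. It went from 0.161 to 0.0283 CPM for ENSG00000215861 and from 0.134 to 0.0389 for ATP6V0D2. The control libraries with dox held 4.5 and 6 counts of these genes in all, so the sizes beyond the control line rest on few counts. CLDN14-AS1 rose by 2.03 ± 0.50, SCN3B by 1.40 ± 0.36, KLF14 by 1.36 ± 0.40 and PHF24 by 1.29 ± 0.36 on the log2 scale (edgeR adjusted p = 0.000865, 0.00149, 0.00429 and 0.00327). Beyond the control line these 4 rose by 2.44 ± 0.80, 2.05 ± 0.63, 1.96 ± 0.58 and 1.79 ± 0.66 (edgeR adjusted p = 0.0113, 0.00692, 0.00536 and 0.0227). The last value was the least stable, since without replicate 3 of the PELO line with dox PHF24 rose by 1.48 with an edgeR adjusted p of 0.0676.

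TREM1 and SPRR2D were called at 48 h in both comparisons, with edgeR adjusted p = 0.000979 and 0.00161 against no dox and 0.00338 and 0.0122 beyond the control line. Their control libraries with dox held 0 counts at 48 h, so no size is given for the second comparison. In the compared libraries alone only 5 of the 12 genes passed the filter, so a call on the others depended on the other groups in the fit. LNCTSI and DDX39BP2 were called against no dox (edgeR adjusted p = 0.00115 and 1.75e-05) but not beyond the control line, where the adjusted p was 0.136 and 0.572. Their log2 changes there were 1.65 ± 0.91 and 1.66 ± 2.18 (SE). The control libraries at 48 h held 0, 1 and 0 counts of DDX39BP2 with no dox and 1, 2 and 3 with dox. These are too few to decide whether the control line shared its response. IVL and TGFA were called in neither comparison. Their log2 changes against no dox were 1.39 ± 0.77 and 0.72 ± 0.57 (edgeR adjusted p = 0.140 and 0.316), at about 0.1 CPM, where the depth leaves few counts to compare.

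As a share of the level at 96 h with dox, the level at 48 h had a median of 12.5% over the 12 genes. ENSG00000215861 stood at 50.1%, SCN3B at 36.2% and KLF14 at 24.0%. The no-dox level was not subtracted from these shares. At 48 h, SCN3B was at 0.142 CPM with no dox and 0.374 with dox, and KLF14 at 0.117 and 0.287. For ENSG00000215861 the values were 0.0690 and 1.91 CPM. IVL and TGFA stood lowest, at 9.14% and 8.22%. In mean CPM, 7 of the 12 were above 0.2 with dox at 48 h and 5 were not. Of all 41794 silent genes, 0.203% were above 0.2 CPM in that group.

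**Figure D2:**
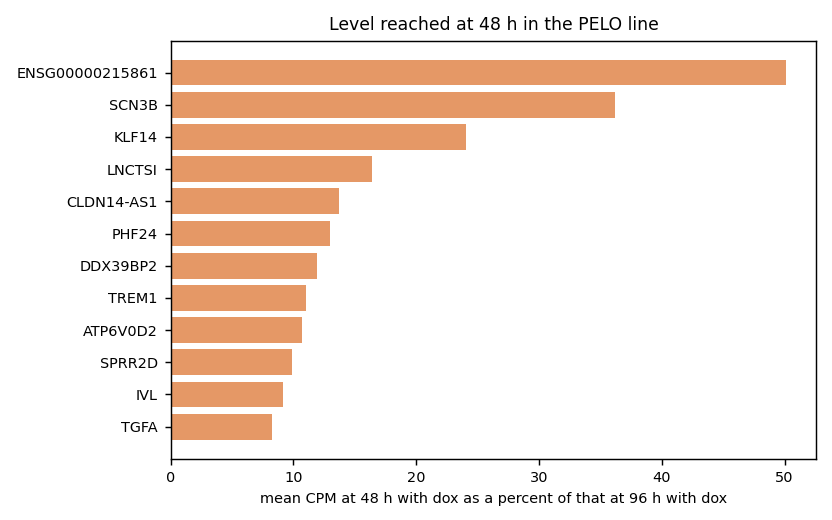
Mean CPM of each of the 12 genes in the PELO line with dox at 48 h as a percent of its mean at 96 h with dox (horizontal axis), 1 bar per gene, with no error bar because each is a ratio of means of 3 libraries. Bars run from 8.22% for TGFA to 50.1% for ENSG00000215861, and the no-dox level is not subtracted.

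**Figure D3:**
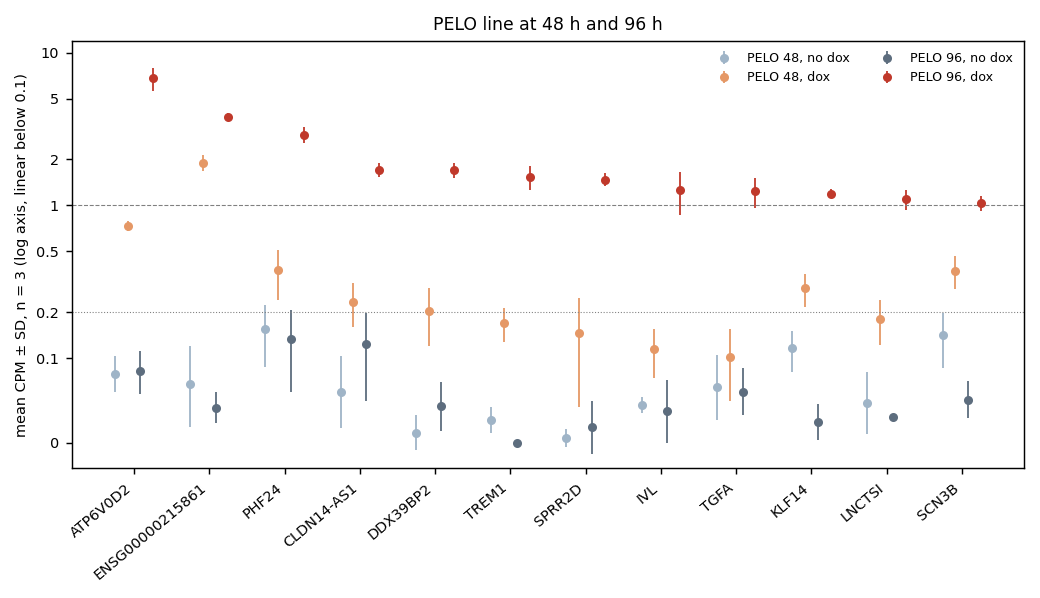
Mean CPM in the PELO line with and without dox at 48 h and 96 h for each of the 12 genes, on a log axis that turns linear below 0.1 CPM. Points are means and bars the SD of 3 libraries, and the horizontal lines mark 1 and 0.2 CPM. The 96 h dox means lie between 1.03 and 6.81 CPM, and ENSG00000215861 is the only gene already above 1 CPM at 48 h.

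Among the 10 groups that had to be low, the HBS1L line with dox at 96 h held the highest mean for 5 of the 12 genes, PHF24 (0.157 CPM), IVL (0.126), TGFA (0.0974), LNCTSI (0.0902) and SPRR2D (0.0541). LCE1F passed the ceiling in that group, and ALOX5AP there and, narrowly, in the control line with no dox at 48 h. The highest mean of ATP6V0D2 was 0.193 CPM, in the HBS1L line with no dox at 48 h. As the rule capped each of these values, they carry no test.

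The same rule turned on each other group found 0 genes, apart from the PELO line with dox at 48 h, where it found 1, ENSG00000215861. In the opposite direction, 3 genes were at 1 CPM or more in each of the 10 other groups and at most 0.2 in the PELO line with dox at 96 h. These were ODAD1, a part of the dynein docking complex of cilia, at 0.158 ± 0.0490 CPM, SELENBP1, a selenium-binding protein, at 0.159 ± 0.00783 CPM, and TMEM88B at 0.145 ± 0.0600 CPM (SD, n = 3).

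The set's epidermal, osteoclast and myeloid genes were next read against lists of genes of those cell types. Of 55 genes of epidermal cornification, IVL and SPRR2D are in the set and 11 others passed the filter on low counts. At 96 h, edgeR's test called 5 of these 11 higher and 6 lower in the PELO line with dox, against 34.4% of all genes higher and 32.5% lower. LCE1F, which had been put forward as a marker of the set, is 1 of the 5. The keratin KRT10 went from 12.7 to 41.8 CPM (a log2 rise of 1.81) and the crosslinking enzyme TGM1, which acts on involucrin, from 0.213 to 1.18 CPM (2.55). In the other direction, the desquamation protease KLK7 went from 4.68 to 0.923 CPM, a log2 change of −2.25, and filaggrin (FLG) from 1.05 to 0.0524 CPM, a change of −4.13. At 48 h, 4 of the 11 were higher, 3 lower and 4 not called, against 24.2% of all genes higher and 23.7% lower. Within the families, LCE1F was the only 1 of 18 LCE genes, and SPRR2D the only 1 of 10 SPRR genes, at 0.2 CPM or more in the PELO line with dox at 96 h, and the next highest were LCE3D at 0.0679 and SPRR2A at 0.0129 CPM. The basal keratins KRT5 and KRT14 were at 0.00563 and 0.00592 CPM and LORICRIN, the main protein of the cornified envelope, at 0.00931.

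**Figure D4:**
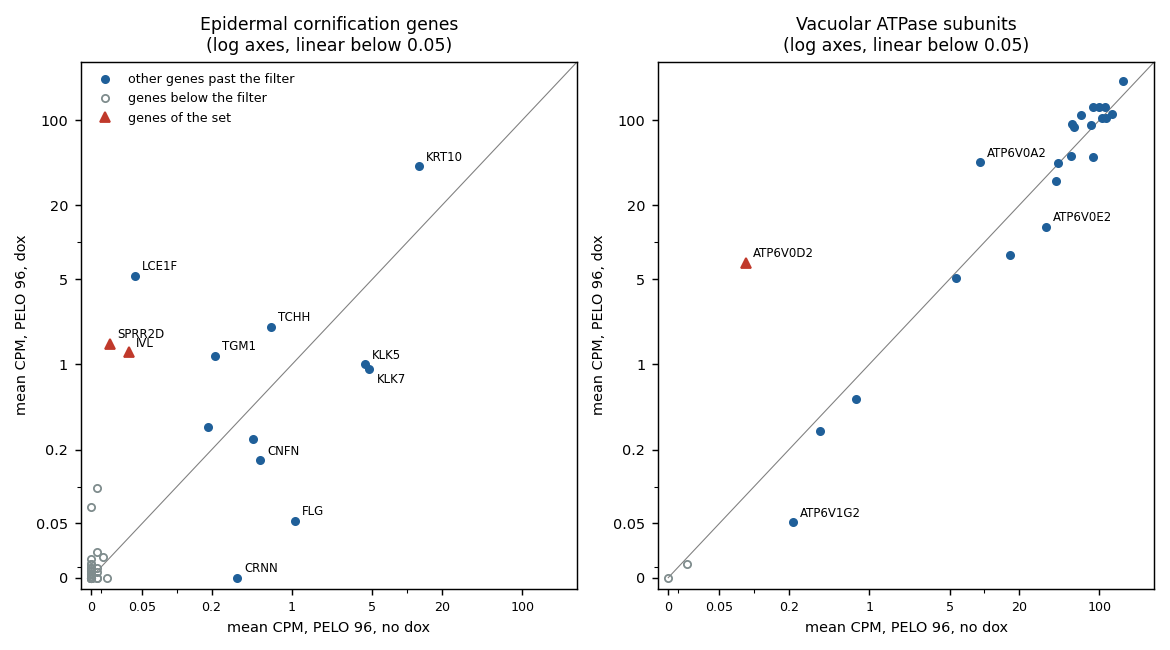
Mean CPM of the genes of 2 lists in the PELO line at 96 h with no dox (horizontal axis) and with dox (vertical axis), on log axes that turn linear below 0.05 CPM, with epidermal cornification at left and vacuolar ATPase subunits at right. Triangles are genes of the set, filled points other genes past the filter and open points genes below it. SPRR2D, IVL and LCE1F lie far above the line of equality, while KLK7 and FLG lie below it.

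The proton pump of ATP6V0D2 has a widely expressed counterpart, ATP6V0D1, which was at 85.2 CPM with no dox and 90.8 with dox at 96 h. Of the 25 genes of pump subunits, 22 besides ATP6V0D2 passed the filter, and 10 were called higher, 5 lower and 7 neither way at 96 h by edgeR's test. At 48 h the counts were 4, 7 and 11. Over all genes tested, 34.4% were called higher and 32.5% lower at 96 h, and 24.2% and 23.7% at 48 h. At 96 h ATP6V0A2, a subunit of the membrane sector, went from 9.10 to 45.4 CPM, a log2 rise of 2.41. ATP6V1C1, of the catalytic sector, rose by 0.75. Of the 5 called lower, ATP6V1G2 changed by −2.12, ATP6V0E2 by −1.26, TCIRG1 by −0.98, ATP6V1A by −0.71 and ATP6V0A1 by −0.30. Of 12 osteoclast genes, 7 others passed the filter, of which 2 were called higher and 3 lower at 96 h, and 4 were called lower and 3 neither way at 48 h. At 96 h CLCN7, the chloride channel of the resorbing membrane, rose by 0.37 on the log2 scale and ITGB3 by 0.98. The osteoclast transcription factor NFATC1 fell by 0.61, and CTSK and OSCAR changed by −1.45 and −1.82. The defining osteoclast genes ACP5 and CALCR were at 0.0357 and 0.0499 CPM in the PELO line with dox at 96 h, and DCSTAMP and OCSTAMP had 0 counts. The summed CPM of the list was 132 in that group and 123 to 169 in the other groups. This sum includes ATP6V0D2 itself, at 6.81 CPM in that group and at most 0.732 in the others.

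Of 22 leukocyte genes, 9 passed the filter, and 4 were called higher and 2 lower at 96 h, with 3 lower and 6 neither way at 48 h. The shares of all genes called higher and lower, to set beside each list here, were 34.4% and 32.5% at 96 h. At 48 h they were 24.2% and 23.7%. CD68, a lysosomal protein, rose by 1.04 and CD14, a coreceptor for lipopolysaccharide, changed by −2.98 on the log2 scale at 96 h. The others called higher at 96 h were LAPTM5, ITGAX and ITGAM, which rose by 1.97, 0.90 and 0.56. CORO1A, the other one called lower, changed by −1.82. The summed CPM of the list ran from 44.5 to 45.5 in the 3 PELO libraries with dox at 96 h and from 33.4 to 40.1 in the means of the other groups. The pan-leukocyte gene PTPRC was at 0.00310 CPM with 1 count in all, the myeloid factor SPI1 at 0.0516 and TYROBP, the adaptor of TREM1, at 0. Of 22 genes of eicosanoid synthesis and leukotriene receptors, 12 passed the filter, with 4 called higher and 5 lower at 96 h and 2 higher and 4 lower at 48 h. The genes called higher include ALOX5AP at both times, which had been put forward as a marker of the set. Besides ALOX5AP, the epidermal lipoxygenase ALOXE3 went from 1.26 to 14.4 CPM, a log2 rise of 3.61, while the prostaglandin E synthase PTGES changed by −1.83. Of 16 cytokines, 8 passed the filter, with 5 higher and 3 neither way at 96 h and 4 higher and 2 lower at 48 h. IL1B, an inflammatory cytokine, went from 1.43 to 10.1 CPM, a log2 rise of 2.90, and LIF rose by 1.37.

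Of 18 neuronal genes, 9 passed the filter, with 1 called higher and 6 lower at 96 h, and 5 lower and 4 neither way at 48 h. The neuronal tubulin TUBB3 changed by −1.02 and the glutamate transporter SLC17A7 by −1.69. RBFOX3, STMN2 and ELAVL4, markers of neurons, were between 0.0134 and 0.0513 CPM in the PELO line with dox at 96 h, and the summed CPM of the list was 109 there and 146 to 227 in the other groups. The remaining 10 lists, for other organs and cell types, held no gene of the set (0 genes). Of their 32 genes past the filter, 3 were called higher and 17 lower at 96 h, and 2 higher and 8 lower at 48 h. ALOX5AP and LCE1F are among the 110 tested genes of all 17 lists outside the set. Of these 110, 30.9% were called higher and 40% lower at 96 h. Among all genes these shares were 34.4% and 32.5%. At 48 h they were 14.5% and 32.7% in the lists, and 24.2% and 23.7% among all genes. Whether cells of another type took part in any result was not tested.

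Around the 12 genes, 103 other genes lay within 100 kilobases, and 81 of them were below 0.2 CPM in the PELO line with dox at 96 h. Of the 28 that passed the filter, edgeR's test called 10 higher and 5 lower at 96 h, where 34.4% of all genes were called higher and 32.5% lower, so the share called higher was near the background. On chromosome 21, ENSG00000279365, a transcript inside the span of CLDN14-AS1, went from 0.0268 to 0.375 CPM, while the flanking MORC3 went from 41.3 to 54.0 and CHAF1B from 41.9 to 27.7. Next to KLF14, the coatomer gene COPG2 changed by −1.10 on the log2 scale from 57.1 CPM. These neighbours were picked after their values were seen.

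The 5 promoters had little in common in their sequence. Their GC content was 32.3% in PHF24, 47.0% in TREM1, 53.3% in IVL, 72.7% in KLF14 and 75.3% in TGFA, a median of 53.3% against 58.3% over 27305 promoters. The ratio of observed to expected CpG ran from 0 in IVL to 1.03 in KLF14, with a median of 0.385 against 0.580 over all. Motifs were searched on both strands. TGACTCA, the AP-1 site, was in IVL alone, 123 bases before the start, and in 4.92% of all promoters. TGATGNAA, the C/EBP-ATF element, was in TREM1 alone, 117 bases before the start, and in 3.67% of all. TATAAA was in IVL (30 bases before the start) and PHF24, and in 11.95% of all. GGGCGG, the GC box, was in TGFA and KLF14, where it starts 69, 56 and 15 bases before the start and at base 1, and in 44.6% of all. The NF-kB consensus was in TGFA and in 10.8% of all, and TGACGTCA, CACGTG and the p53 consensus were in none of the 5 (0 promoters), and in 1.98%, 7.44% and 6.54% of all. TATAAA and the IVL match to TGACTCA do not overlap each other. A match describes the letters of these windows only.

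Near the floor of 1 CPM with dox at 96 h, SCN3B (1.03), LNCTSI (1.10) and KLF14 (1.19) lay just inside the set. RPLP0P2 (0.993), STYK1 (0.909) and PTPRR (0.883) lay just outside it. Near the ceiling of 0.2 CPM, the highest means in another group were 0.193 for ATP6V0D2, 0.184 for KLF14 and 0.161 for ENSG00000215861. SMPD3 (0.201), SPX (0.201) and NECTIN4 (0.206) were just above it, with 1.04, 1.83 and 2.32 CPM in the PELO line with dox at 96 h.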

How the data were processed

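RNA of 36 libraries was measured by sequencing. The submitters' processing notes name the build GRCh38.p13 and the tools limma, edgeR, Subread, featureCounts and DRAGEN, without their order. Versions and annotation are not stated there. The authors deposited expected counts per Ensembl gene, of which 45.6% of the values above 0 were not whole, and a table of log2 expression, used here only to see which genes it lists. Each sample's column was matched by its title, and no column belonged to other samples (0 columns).

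CPM was computed from the deposited counts. For tests, counts were rounded and fitted over all 12 groups with edgeR 4.0.16 (TMM, filterByExpr with min.count 10 and min.total.count 15, robust quasi-likelihood, adjusted p under 0.05) in R 4.3.3; limma 3.58.1 and DESeq2 1.42.0 served as support and alternative. The test was tried on simulated data. Coordinates and exon lengths come from GENCODE release 29 (GRCh38), promoters from RefSeq GRCh38.p14.

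The genes of the set, the 17 lists and the tests were chosen with earlier results of these data known. Genes named are those of the set and its 3 markers, the targeted genes, those next to a threshold, and per described list the 2 others with the smallest adjusted p at 96 h; further list members, neighbours and defining markers were named after their values were seen. Alternatives tried were other floors and ceilings, scalings, DESeq2, left-out replicates, a replicate block and a fit of the compared libraries only.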

Additional observations from a re-analysis of the deposited data

Results flagged for a closer look

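The dox response at 48 h differed between the PELO line and the control line for 8 of the 12 genes, by the test of the difference itself (edgeR's quasi-likelihood test, Benjamini-Hochberg adjusted over all genes, 3 libraries per group), against 22.9% of all genes tested called higher. The filter on low counts was passed through the 96 h dox libraries that chose the genes, and only 5 of the 12 passed it in the compared libraries alone. In each of the 8, the mean CPM of the PELO line rose with dox at 48 h while that of the control line fell. The control mean went from 0.161 to 0.0283 CPM for ENSG00000215861 and from 0.120 to 0.0836 for PHF24. Part of each difference thus comes from a lower control mean with dox, which rests on few counts and was not tested by itself. The adjusted p was 9.6e-11 for the pseudogene ENSG00000215861, 9.1e-08 for the pump subunit ATP6V0D2, 0.00338 for the myeloid receptor TREM1 and 0.00536 for the transcription factor KLF14. It was 0.00692 for the sodium channel subunit SCN3B, 0.0113 for the antisense RNA CLDN14-AS1, 0.0122 for the envelope protein SPRR2D and 0.0227 for PHF24. Both no-dox groups and the control line with dox had to be low for a gene to enter the set.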

How the results depend on the processing

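The size of the set depended on its thresholds. It held 5 genes with a ceiling of 0.1 CPM and 40 with 0.5, 36 with a floor of 0.5 CPM and 3 with 2, 4 when every library had to meet both limits, and 4 when counts had to be whole in the PELO line with dox at 96 h. With a TMM or DESeq2 scaling of the CPM it held 14, gaining SPX and RPLP0P2. Leaving out 1 library of that group in turn gave 11 to 13 genes; without replicate 3 SCN3B was lost, and without replicate 1 or 2 RPLP0P2 or PTPRR was gained. At 48 h, leaving out each PELO library in turn gave 10 genes called higher against no dox and 7 to 8 beyond the control line. The control libraries were not left out in turn. DESeq2's test gave 10 and 8. A fit of only the compared libraries called 5 in either comparison, because only 5 then passed the filter; with no filter as well, an alternative chosen after seeing the data, it called 10 and 8. Replicate numbers did not pair the samples (same-number correlations −0.0956 to 0.0861 in the PELO line at 48 h), and a replicate block gave 10 and 8. Of 298 alternative values of single genes' log2 changes, 297 kept direction and side of the threshold and 0 reversed. Genes at 0.1 to 0.3 CPM rest on a few to about 15 counts per library, which limits what 48 h can show.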
